A study of Mus musculus with 6 samples.

Results

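A group of 7 genes of post-transcriptional control was followed in naive CD8 T cells that lack the inhibitory receptor LAIR-1. They are Zfp36, Zfp36l1 and Zfp36l2 of the ZFP36 family, Zc3h12a (Regnase-1), the Roquin genes Rc3h1 and Rc3h2, and Pdcd4. They were chosen by symbol, 7 of the 14515 gene rows in the table, and all 7 were high enough to be tested. Libraries came from naive CD8 T cells of the spleens of 3 LAIR-1-deficient (Lair1-/-) and 3 wild type (Lair1+/+) mice, with 100000 cells sorted per mouse and 1 library per mouse. The cells were untreated, and the sorting gate took in CD45, CD3 and CD8 and left out CD44. Strain, age and the deleted part of Lair1 are missing from the sources used here. The deficiency is that of the whole mouse and was not limited to T cells by anything in the labels.

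ZFP36 proteins bind AU-rich elements in the 3′ untranslated regions (UTRs) of cytokine and other mRNAs and recruit the CCR4-NOT complex, which removes the poly(A) tail. Regnase-1 is an endonuclease that cuts stem-loops in 3′ UTRs, and Roquin proteins bind such stem-loops and recruit decay enzymes; in T cells both are cut by the paracaspase MALT1 after the antigen receptor is triggered. PDCD4 is of another kind: it binds the helicase eIF4A and restrains translation rather than mRNA stability. Zfp36 is also a classic early response gene, and its own mRNA carries AU-rich elements.

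The deleted gene matched the labels. Lair1 had 2, 1 and 1 counts in the LAIR-1-deficient libraries and 58, 32 and 43 counts in the wild type libraries. Counts over all genes summed to between 5519748 and 7296424 in LAIR-1-deficient libraries and between 7974206 and 9187017 in wild type libraries, so every LAIR-1-deficient library was the shallower. The 9 CD8 T cell markers examined summed to between 7109 and 7822 CPM (counts relative to library size, after TMM scaling) in LAIR-1-deficient and between 7282 and 7672 CPM in wild type libraries. Markers of myeloid cells were low but not all at 0: Lyz2, a lysozyme of macrophages and granulocytes, had 0 to 1 counts per library, the macrophage marker Cd68 had 22 to 30, Csf1r, a receptor of monocytes and macrophages, had 3 to 26, and the neutrophil genes S100a8 and S100a9 had 0 to 15 and 0 to 22.

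The sequences that the results refer back to are given here. The promoters of Zfp36 and Zc3h12a are shown because these 2 genes varied most between mice. Each window runs from 250 bases before to 50 bases after the RefSeq start (GRCm38.p6). Capitals mark letters found by a search on both strands for GCGGGGGCG (the EGR motif), TGACGTCA (the cAMP response element), TGANTCA (AP-1), the CArG box of serum response factor and the NF-kappaB motif, a set chosen after the Zfp36 window had been seen.
Zfp36 promoter, chr7:28379179-28379478, minus strand: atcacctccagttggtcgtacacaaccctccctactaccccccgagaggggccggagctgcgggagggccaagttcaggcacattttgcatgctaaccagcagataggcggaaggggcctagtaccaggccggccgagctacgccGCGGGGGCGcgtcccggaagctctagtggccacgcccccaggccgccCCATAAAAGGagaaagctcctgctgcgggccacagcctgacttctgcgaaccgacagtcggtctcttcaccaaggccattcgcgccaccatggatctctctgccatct
Zc3h12a promoter, chr4:125127832-125128131, minus strand: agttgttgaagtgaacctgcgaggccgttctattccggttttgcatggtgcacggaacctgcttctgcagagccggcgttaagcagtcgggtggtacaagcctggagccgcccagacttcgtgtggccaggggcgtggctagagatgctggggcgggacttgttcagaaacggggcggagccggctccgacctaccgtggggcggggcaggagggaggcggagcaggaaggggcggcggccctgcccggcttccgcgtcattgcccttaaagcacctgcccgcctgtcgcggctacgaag

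The Zfp36 window held an EGR motif from base -105 to -97 and a CArG box from base -58 to -49 relative to the RefSeq start. The GENCODE locus of Zfp36 begins further upstream, at base 28380253, so this window lies within that locus. Of all 32851 RefSeq promoter windows, 2.91% held that EGR motif and 1.63% a CArG box. None of the 5 motifs was found in the Zc3h12a window, which says only that these letters are not in it. AP-1 letters, present in 7.81% of all windows, were found in the windows of Rc3h1 and Zfp36l1, and the 6 members with a RefSeq window held no other match.

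The 3 ZFP36 family mRNAs each carried 3 copies of TATTTAT, the core of the element that ZFP36 proteins bind, in the longest annotated 3′ UTR (GENCODE vM21, GRCm38). The copies are shown in capitals with 10 bases on each side, since ZFP36 proteins are known to bind such sites; the first 2 windows of Zfp36 overlap.
Zfp36 site 1, chr7:28376967-28376993, minus strand: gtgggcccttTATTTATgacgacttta
Zfp36 site 2, chr7:28376952-28376978, minus strand: atgacgacttTATTTATtgtattaaga
Zfp36 site 3, chr7:28376927-28376953, minus strand: gattttatagTATTTATatatattggg
Zfp36l1 site 1, chr12:80108423-80108449, minus strand: tatcaaaacgTATTTATtgccaaacta
Zfp36l1 site 2, chr12:80108382-80108408, minus strand: attttgttcaTATTTATcgggatgaca
Zfp36l1 site 3, chr12:80108168-80108194, minus strand: actgttggatTATTTATtttagaaatt
Zfp36l2 site 1, chr17:84184915-84184941, minus strand: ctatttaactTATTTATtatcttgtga
Zfp36l2 site 2, chr17:84184867-84184893, minus strand: gtccatactgTATTTATcgagtatgat
Zfp36l2 site 3, chr17:84184681-84184707, minus strand: ttgtatgtaaTATTTATttcattaatt

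Among 8776 tested genes with an annotated 3′ UTR, 30.3% had at least 1 copy of TATTTAT and 3.91% at least 3. The density was 3.88 copies per kb in Zfp36, 1.64 in Zfp36l1 and 1.65 in Zfp36l2, beside 0.283 over all these genes together. Rc3h2 also had 3 copies and Rc3h1 had 2, in far longer UTRs of 5331 and 7181 bases. Zc3h12a and Pdcd4 had 0.

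No member was called different between the genotypes. In edgeR's quasi-likelihood test with Benjamini-Hochberg adjustment over 9565 genes, 0 of 7 passed an adjusted p of 0.05, and each had an adjusted p of 0.9999. The share of all genes called was 0.0105%, which is Lair1 alone. The smallest unadjusted p among the 7 was 0.254, for Pdcd4, while 3.25% of all genes reached 0.05 before adjustment. LAIR-1-deficient and wild type libraries overlapped for all 7, where 8.38% of all genes did not overlap. The 95% interval of the fold change, LAIR-1-deficient over wild type, lay within 1.5-fold in both directions for 4 of 7 members, beside 63.2% of all genes, and within 2-fold for 5 of 7, beside 85.9%; the members outside 2-fold were Zfp36 and Zc3h12a. Nothing in the labels ties the mice of a group to separate litters or days. These p-values therefore set the genotype difference against the spread between these animals and libraries only. In edgeR the estimate of that spread also draws on the other tested genes.

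The members differed in their spread between mice. Zfp36 and Zc3h12a stood far higher in mouse 1 of each genotype than in the 4 other libraries. Both mouse 1 libraries were the highest for 4 of 7 members (Zfp36, Zfp36l1, Zfp36l2 and Zc3h12a), beside 11.9% of all tested genes, and the lowest for 1 (Pdcd4), beside 12.1%. Both exceeded the highest other library by more than 2-fold for 2 of 7 members, beside 0.261% of all tested genes. These 2 were also the members whose log2 CPM ranged over more than 1 across the 6 libraries, beside 15.8% of all genes. In bulk RNA, more cells that hold a transcript and more RNA per cell cannot be told apart.

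**Figure D1:**
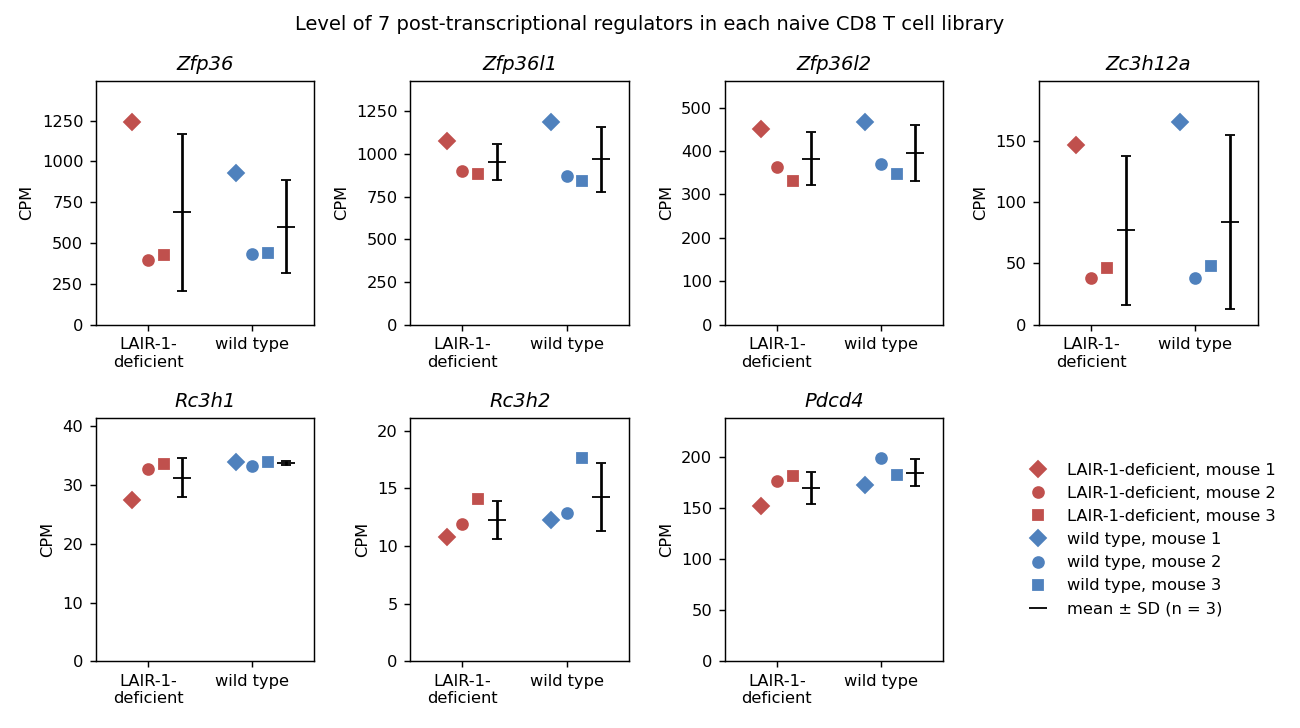
Level of each member in CPM (counts scaled to library size by TMM factors) in the 3 LAIR-1-deficient libraries (left) and the 3 wild type libraries (right) of each panel; symbols mark the mouse and bars the mean ± SD (n = 3). For Zfp36 and Zc3h12a the mouse 1 libraries (diamonds) of both genotypes stand apart, while Rc3h1, Rc3h2 and Pdcd4 show no such step.

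Zfp36 encodes tristetraprolin, the founding member of the family. Its level was 1244, 396 and 425 CPM in LAIR-1-deficient mice 1 to 3, against 931, 434 and 438 CPM in wild type mice 1 to 3. Mouse 1 was 3.03 times the mean of the other 2 mice in the LAIR-1-deficient group and 2.13 times in the wild type group. The 4 libraries of mice 2 and 3 lay within 1.10-fold of each other. By group the level was 688 ± 481 CPM in LAIR-1-deficient and 601 ± 286 CPM in wild type cells (SD, n = 3 each), a log2 fold change of 0.20 with an SE of 0.65. Its interval ran from 0.334-fold to 3.94-fold. Without mouse 1 of both genotypes the log2 fold change was -0.090, with an interval from 0.817-fold to 1.08-fold; without LAIR-1-deficient mouse 1 alone it was -0.55, and without wild type mouse 1 alone 0.66.

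Zc3h12a encodes Regnase-1 and varied still more. It was at 147, 38.1 and 45.9 CPM in LAIR-1-deficient mice 1 to 3, against 166, 38.3 and 48.0 CPM in wild type mice 1 to 3. Both mouse 1 libraries were at least 3.06 times the highest of the others, and within each mouse number the genotypes were close: LAIR-1-deficient over wild type was 0.887 for mouse 1, 0.994 for mouse 2 and 0.957 for mouse 3. The SD of its log2 CPM over the 6 libraries was larger than that of 99.3% of tested genes, and that of Zfp36 larger than that of 97.5%. The genotype means were 77.0 ± 60.8 CPM in LAIR-1-deficient and 84.0 ± 70.9 CPM in wild type cells (SD, n = 3 each), a log2 fold change of -0.11 with an SE of 0.90. Its interval spanned 0.169-fold to 5.07-fold, and 0.780-fold to 1.22-fold without mouse 1 of both genotypes. The log2 fold change was -0.99 without LAIR-1-deficient mouse 1 and 0.84 without wild type mouse 1. Counting error alone gives a coefficient of variation of 4.05% for Zc3h12a and 1.43% for Zfp36, against 78.9% and 69.9% observed in LAIR-1-deficient and 84.4% and 47.5% in wild type libraries.

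**Figure D2:**
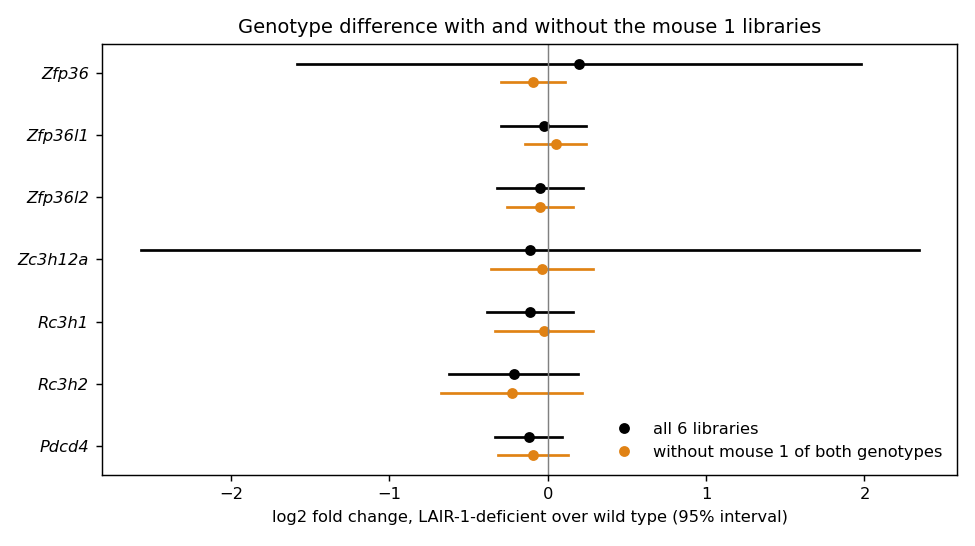
Log2 fold change of each member, LAIR-1-deficient over wild type, with its 95% interval (edgeR), over all 6 libraries (black) and without mouse 1 of both genotypes (orange). The intervals of Zfp36 and Zc3h12a shrink when the mouse 1 libraries are left out, and every interval includes 0.

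Zfp36l1 and Zfp36l2, the paralogues of Zfp36 that act in lymphocyte development and quiescence, were also highest in mouse 1, by much smaller steps. Zfp36l1 was at 1074, 899 and 883 CPM in LAIR-1-deficient mice 1 to 3, against 1190.0, 874 and 842 CPM in wild type mice. Zfp36l2 was at 449.6, 364 and 332 CPM in LAIR-1-deficient mice 1 to 3, against 468, 369 and 346 CPM in wild type mice. Mouse 1 was the highest of its group for both genes, at 1.21 and 1.29 times the mean of the other LAIR-1-deficient mice and 1.39 and 1.31 times that of the other wild type mice. The log2 fold change by genotype was -0.025 for Zfp36l1, with an interval from 0.816-fold to 1.18-fold. For Zfp36l2 it was -0.047, with an interval from 0.802-fold to 1.17-fold. Their profiles over the 6 libraries were the most alike of any 2 members, with a root mean square difference of 0.058 between their centred log2 CPM, and the ratio of Zfp36l1 to Zfp36l2 counts was 2.51 ± 0.141 in LAIR-1-deficient and 2.45 ± 0.0893 in wild type cells (SD, n = 3 each; exact permutation test, two-sided, p = 0.6; this design cannot go below 0.1).

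The make-up of the family differed between mice. Zfp36 took 44.9% of the counts of the 3 family genes in LAIR-1-deficient mouse 1, 23.9% in mouse 2 and 25.9% in mouse 3. In wild type mice it took 36.0%, 25.9% and 26.9%. The exact binomial 95% intervals of the mouse 1 shares ran from 44.2 to 45.7% in the LAIR-1-deficient library and from 35.3 to 36.6% in the wild type library, and cover counting error only. Between genotypes the share was 31.6 ± 11.6% in LAIR-1-deficient and 29.6 ± 5.54% in wild type cells (SD, n = 3 each), with a two-sided exact permutation p of 0.9. The 3 family genes together reached 2768, 1659 and 1640 CPM in LAIR-1-deficient mice 1 to 3, against 2588, 1678 and 1627 CPM in wild type mice.

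**Figure D3:**
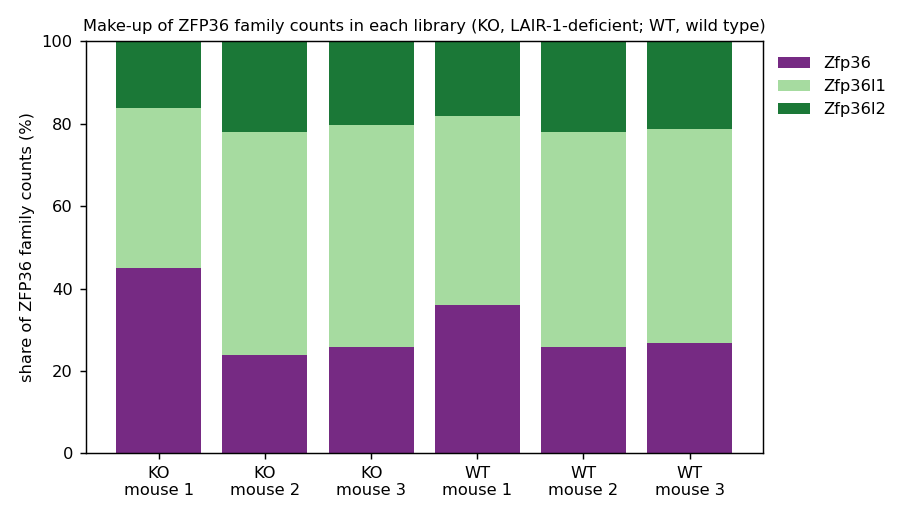
Share of the counts of Zfp36, Zfp36l1 and Zfp36l2 taken by each gene (percent of their sum) in every library, LAIR-1-deficient (KO) to the left and wild type (WT) to the right. Zfp36 takes 44.9% and 36.0% in the mouse 1 libraries and 23.9 to 26.9% in the others.

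The Roquin genes were low and did not share the step in mouse 1. Rc3h1, which encodes Roquin-1, was at 27.4, 32.7 and 33.5 CPM in LAIR-1-deficient mice 1 to 3, against 33.9, 33.3 and 34.0 CPM in wild type mice. LAIR-1-deficient mouse 1 was the lowest library and the other 5 lay close together. Counting error alone gives Rc3h1 a coefficient of variation of 6.3%, against 10.7% observed in LAIR-1-deficient and 1.19% in wild type libraries. The wild type value thus lay below counting error. Rc3h2, which encodes Roquin-2, was at 10.8, 11.9 and 14.1 CPM in LAIR-1-deficient mice, against 12.2, 12.9 and 17.6 CPM in wild type mice. Wild type mouse 3 was the highest library. Their log2 fold changes were -0.11 (interval 0.765-fold to 1.12-fold) for Rc3h1 and -0.22 (0.649-fold to 1.14-fold) for Rc3h2. Rc3h2 had 67 to 157 counts per library, so counting error alone gives a coefficient of variation of 9.86%, against 13.6% observed in LAIR-1-deficient and 20.6% in wild type libraries. The ratio of Rc3h1 to Rc3h2 counts was 2.55 ± 0.185 in LAIR-1-deficient and 2.43 ± 0.441 in wild type cells (SD, n = 3 each; two-sided exact permutation p = 0.9).

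Pdcd4, the translation repressor, was lowest in both mouse 1 libraries, as were 12.1% of all tested genes, and varied within a narrow range. It was at 152, 177 and 181 CPM in LAIR-1-deficient mice 1 to 3, against 173, 199 and 182 CPM in wild type mice. The mouse 1 library was the lowest of each genotype, at 0.847 of the mean of the other LAIR-1-deficient mice and 0.907 of that of the other wild type mice. Across genotypes the margin was small: the higher mouse 1 library was at 0.976 of the lowest of the 4 others. Counting error alone gives Pdcd4 a coefficient of variation of 2.71%. By genotype it was at 170.1 ± 16.0 CPM in LAIR-1-deficient and 185 ± 13.2 CPM in wild type cells (SD, n = 3 each), a log2 fold change of -0.12 with an interval from 0.795-fold to 1.07-fold. The SD of its log2 CPM was larger than that of 22.8% of tested genes and that of Rc3h1 larger than that of 19.3%, so both were among the steadier genes.

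Per kb of merged exon, the level ranked, from highest to lowest, Zfp36l1, Zfp36, Zfp36l2, Pdcd4, Zc3h12a, Rc3h1, Rc3h2. The means were 318 and 324 CPM per kb for Zfp36l1 in LAIR-1-deficient and wild type cells, 198 and 173 for Zfp36, and 108 and 112 for Zfp36l2. They were 54.3 and 58.9 CPM per kb for Pdcd4, 26.7 and 29.2 for Zc3h12a, 2.76 and 2.98 for Rc3h1, and 0.625 and 0.726 for Rc3h2. Neighbours kept this order in all 6 libraries except Pdcd4 and Zc3h12a, which kept it in 4. In LAIR-1-deficient mouse 1, Zfp36l1 and Zfp36 were level on this scale, at 359.2 and 358.5 CPM per kb. The sources used here do not say which part of a transcript the reads cover, so a level per kb holds only if reads fall along the whole of it. For Zfp36 the merged exons take in the whole annotated locus, 3.47 kb. A shorter transcript would give Zfp36 a higher level per kb, so its rank beside Zfp36l1 depends on the length used.

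Of the 5 genes whose pattern over the 6 libraries was most like Zfp36, 2 (Fos and Jun) are on the early gene list described further on. Likeness was the root mean square difference between log2 CPM profiles after subtracting each gene's mean, over 6 libraries and 9211 other protein-coding genes. For Zfp36 the nearest were Fos (0.084) and Jun (0.12), both subunits of AP-1, with the small GTPase Rhob (0.097), the transcriptional repressor Tgif1 (0.12) and Csrnp1 (0.12), where the median over all genes was 0.67. Fos was at 1239, 389 and 449 CPM in LAIR-1-deficient mice 1 to 3, against 949.8, 406 and 493 CPM in wild type mice. Like Zfp36, it was highest in LAIR-1-deficient mouse 1 and second in wild type mouse 1.

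For Zc3h12a the nearest were the MAP kinase phosphatase Dusp1 (0.17), the AP-1 subunit Fosl2 (0.17), the early activation marker Cd69 (0.20), the cytokine gene Tnf (0.21) and Nfkbid (0.25), an atypical inhibitor of NF-kappaB, where the median over all genes was 0.91. Tnf and Nfkbid are reported targets of members of this group. Tnf was at 33.4, 10.7 and 8.89 CPM in LAIR-1-deficient mice 1 to 3, against 29.3, 8.43 and 10.7 CPM in wild type mice. Mouse 1 of each genotype was high for Zfp36 and Zc3h12a and for these target mRNAs alike.

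**Figure D4:**
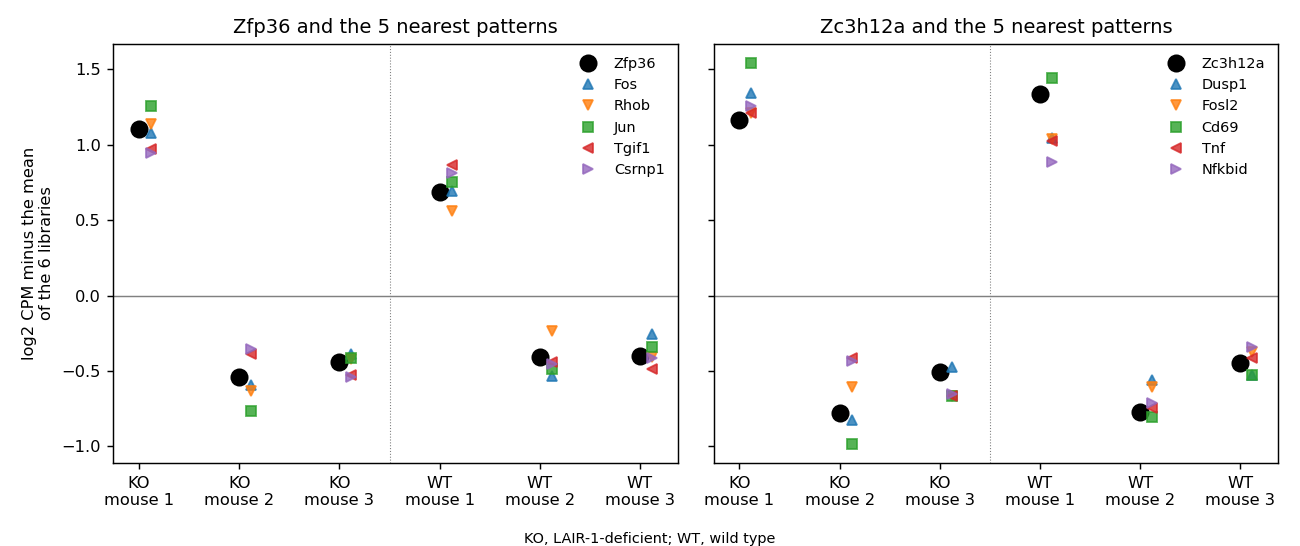
Log2 CPM minus the mean of the 6 libraries for Zfp36 (left) and Zc3h12a (right) and the 5 protein-coding genes nearest to each, in LAIR-1-deficient (KO) and wild type (WT) libraries. Every gene shown is above its mean in both mouse 1 libraries and below it in the 4 others.

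The early gene list showed the same step as a group. Of 23 tested early genes, 21 were highest in both mouse 1 libraries and 10 by more than 2-fold, beside 11.9% and 0.261% of all tested genes. The list medians of centred log2 CPM were 1.08, -0.58 and -0.47 in LAIR-1-deficient mice 1 to 3 and 0.69, -0.49 and -0.27 in wild type mice 1 to 3. The list was chosen with this pattern known, so its count is no independent support. The 3 members with the largest spread were Fosb, Nr4a1 (a nuclear receptor that T cells induce on antigen recognition) and Cd69. Nr4a1 was at 588, 78.3 and 56.7 CPM in LAIR-1-deficient mice 1 to 3, against 473, 80.4 and 113 CPM in wild type mice. Between genotypes 0 of 23 passed the test; the log2 fold change was 0.15 for Myc and -0.32 for Ier3, which had the lowest p. The median log2 fold change of the list was 0.052; it was -0.65 without LAIR-1-deficient mouse 1 and 0.52 without wild type mouse 1.

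Markers of other cell types were set beside this spread, and their part in it was not tested. Monocyte and macrophage markers (5 of 6 in the table) summed to 5.62 CPM in LAIR-1-deficient mouse 1 and 5.55 CPM in wild type mouse 1, against 4.60 to 7.38 CPM in the other 4 libraries. B cell markers (4 of 5) summed to 32.3 and 30.0 CPM in these 2 libraries, against 25.3 to 32.5 CPM, and dendritic cell markers (4 of 4) to 1.15 and 1.26 CPM, against 0.673 to 2.05 CPM. For these 3 cell types both mouse 1 libraries lay within the range of the others. NK cell markers (3 of 3) were lower there, at 40.2 and 38.2 CPM, against 49.9 to 58.7 CPM; nearly all of this was Eomes, which CD8 T cells also express, while Ncr1 had 0 to 1 counts per library. Neutrophil markers (2 of 4) summed to 4.47 and 0.378 CPM, against 0.137 to 4.05 CPM, platelet markers (3 of 3) to 2.16 and 5.80 CPM, against 1.07 to 3.39 CPM, erythroid markers (3 of 4) to 34.3 CPM in each, against 26.9 to 168 CPM, and CD4 T cell markers (2 of 2) to 3.03 and 0.883 CPM, against 0.985 to 4.24 CPM. None of these lists was above the other 4 libraries in both mouse 1 libraries.

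Reported targets of the decay factors were tested between genotypes with 0 calls. Of 12 tested targets of Regnase-1 and Roquin, 10 had a positive and 2 a negative log2 fold change, with a median of 0.14, beside a median of 0.00059 and 4802 positive of 9565 over all tested genes. That median was -0.35 without LAIR-1-deficient mouse 1 and 0.43 without wild type mouse 1. Ndfip1, an adaptor of ubiquitin ligases, was at 36.7 ± 5.71 CPM in LAIR-1-deficient and 33.4 ± 1.96 CPM in wild type cells (SD, n = 3 each). The list also holds Icos, a costimulatory receptor repressed by Roquin, which was at 46.1, 40.9 and 34.6 CPM in LAIR-1-deficient mice 1 to 3, against 38.1, 41.1 and 39.7 CPM in wild type mice, and was named here after its values were seen. Of the 12, 6 were highest in both mouse 1 libraries, beside 11.9% of all tested genes, and 4 by more than 2-fold, beside 0.261%. The 4 were Tnf, Nfkbid, Nfkbiz and Zc3h12a itself, of which Nfkbiz was named after its values were seen. The list was chosen with earlier results of these data known, so these counts are not independent of them.

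For the ZFP36 family, 12 of 18 listed targets were tested, with 6 positive and 6 negative log2 fold changes, a median of 0.023 and 0 calls. The median was -0.21 without LAIR-1-deficient mouse 1. Both mouse 1 libraries were the highest for 2 of the 12, beside 11.9% of all tested genes. These 2 were Tnf and Nfkbid, which are also on the list above, and both were highest by more than 2-fold, beside 0.261% of all tested genes. E2f2, a transcription factor of cell cycle entry, had a log2 fold change of -0.43, and Cdk6, a G1 kinase, 0.67, both at 7.18 CPM or less in every library. Ifng was below the count filter, with at most 10 counts in a library, as were Csf2 and Il10, with at most 1 and 3. Il2ra, a target of Regnase-1, had at most 6 counts.

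The machinery that carries out decay gave 0 calls between genotypes. The 18 genes of CCR4-NOT deadenylation and its adaptors were all tested, with 9 positive and 9 negative log2 fold changes and a median of -0.011; it was -0.11 without wild type mouse 2 and 0.060 without wild type mouse 1. Cnot6, a deadenylase subunit, had the smallest unadjusted p of the list (0.0091) and was at 12.6 ± 1.33 CPM in LAIR-1-deficient and 17.9 ± 2.27 CPM in wild type cells (SD, n = 3 each), with no overlap between groups; its adjusted p was 0.9999 in edgeR. Cnot4, a ubiquitin ligase of the complex, was at 39.5 ± 2.79 CPM in LAIR-1-deficient and 33.3 ± 1.35 CPM in wild type cells, also without overlap. Non-overlap was seen for these 2 of the 18 genes, near the 8.38% of all genes. Among 17 genes of decapping and 5′ to 3′ decay, 6 had a positive and 11 a negative log2 fold change (median -0.040); Lsm1, a subunit of the ring that promotes decapping, had a log2 fold change of 0.38 and Dcp1b 0.19. The 14 genes of the exosome, which degrades RNA from the 3′ end, and its cofactors had 8 positive and 6 negative values. Their median was 0.031, with Exosc7 at -0.24 and Exosc2 at 0.25. Both mouse 1 libraries were the highest for 6 of 18 CCR4-NOT, 2 of 17 decapping and 1 of 14 exosome list genes, beside 11.9% of all tested genes. They were the lowest for 0, 2 and 2, beside 12.1%, and the highest by more than 2-fold for 0 in each list.

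Other RNA binders, cofactors and regulators of the members gave 0 calls as well. Of 9 tested AU-rich element binders, stem-loop binders and paralogues, 5 had a positive and 4 a negative log2 fold change, and the median was 0.044. N4bp1, a ribonuclease related to Regnase-1, was at 21.5, 28.3 and 21.5 CPM in LAIR-1-deficient mice 1 to 3, against 14.8, 16.9 and 18.5 CPM in wild type mice. All LAIR-1-deficient libraries were above all wild type libraries, with a log2 fold change of 0.50, an unadjusted p of 0.0067 and an adjusted p of 0.9999 in edgeR. Khsrp, which promotes decay of AU-rich mRNAs, also did not overlap between groups, at 243 ± 12.4 CPM in LAIR-1-deficient and 221 ± 5.40 CPM in wild type cells. Non-overlap was seen for 3 of the 9, beside 8.38% of all genes; the other was Hnrnpd, with a log2 fold change of -0.13, named after its values were seen. Both mouse 1 libraries were the highest for 2 of the 9 and the lowest for 4, beside 11.9% and 12.1% of all tested genes. The Regnase paralogues Zc3h12b and Zc3h12c had at most 7 and 1 counts in a library.

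Among 12 genes whose products modify the members, such as kinases, proteases and ubiquitin ligases, 9 had a positive and 3 a negative log2 fold change, and the median was 0.055. Both mouse 1 libraries were the highest for 4 of the 12 and the lowest for 2, beside 11.9% and 12.1% of all tested genes. Btrc, a ubiquitin ligase subunit that marks PDCD4 for degradation, was at 12.8 ± 2.68 CPM in LAIR-1-deficient and 9.24 ± 2.52 CPM in wild type cells (SD, n = 3 each), and the groups overlapped. The 7 genes of the eIF4A complexes that PDCD4 acts on had a median of 0.00088, with Eif4b at 0.12 and Eif4a1, the helicase bound by PDCD4, at -0.10. In edgeR 0 of these 7 had an unadjusted p under 0.05, beside 3.25% of all tested genes, so this count is near that share. Both mouse 1 libraries were the highest for 0 of the 7 and the lowest for 0.

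The loci bear on how far the counts can be read. In GRCm38, Zfp36 (ENSMUSG00000044786.6) lies on chromosome 7 from 28376784 to 28380253, Zfp36l1 (ENSMUSG00000021127.7) on chromosome 12 from 80107754 to 80113013, and Zfp36l2 (ENSMUSG00000045817.8) on chromosome 17 from 84183931 to 84187947. All 3 are on the minus strand, and exons of each overlap an annotated noncoding gene on the opposite strand (Gm44710, Gm26669 and AC132455.1). Whether counting used strand is not stated, so reads of each pair cannot be told apart. Zc3h12a (ENSMUSG00000042677.7) lies on chromosome 4 from 125118423 to 125127840 and Rc3h2 (ENSMUSG00000075376.10) on chromosome 2 from 37370069 to 37422903, both on the minus strand. Rc3h1 (ENSMUSG00000040423.10) lies on chromosome 1 from 160906418 to 160974978 and Pdcd4 (ENSMUSG00000024975.13) on chromosome 19 from 53892231 to 53929860, both on the plus strand. All 7 are annotated as protein coding. Transcripts of the members share few exact words: of 3034 distinct words of 31 bases in Zfp36l1 transcripts, 2 occur in Zfp36l2, and 10 of 3468 in Zfp36 transcripts occur in Rc3h2.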

How the data were processed

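RNA of naive CD8 T cells was sequenced in 6 libraries, 3 LAIR-1-deficient and 3 wild type, 1 per mouse. Each library has 1 column of raw, unscaled counts, as deposited and per the file headers. The submitters' processing notes name BWA, without a version, and mm10. How reads were assigned to genes, whether strand or molecular identifiers were used, and which annotation served are missing from the sources used here. Libraries were made from total RNA with small RNA primers, per the labels' protocols.

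Columns were matched to samples by description, and groups and mouse numbers come from the titles. Of 14515 gene rows, 14345 matched a GENCODE vM21 gene, 754 of them through an older symbol. The 4 spike-in rows, which summed to at most 4 counts in a library, were left out. No 2 libraries agreed within sampling noise, with a chi-square of 4.99 to 23.4 per gene between pairs.

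Genes were tested with edgeR 4.0.16 (R 4.3.3): filterByExpr with a smallest count of 10, TMM factors, a robust quasi-likelihood F test, LAIR-1-deficient over wild type, no covariate, two-sided, Benjamini-Hochberg adjustment over 9565 genes, threshold 0.05. SEs and 95% intervals come from the F statistic. Profiles use log2 CPM with a prior count of 2. Alternatives were other scalings and filters, DESeq2 1.42.0, limma-voom 3.58.1, mouse number as a block and left-out libraries. The test was checked on simulated counts, drawn independently for each library and so without the step seen in the mouse 1 libraries. Promoters are from RefSeq and transcripts from GENCODE; the promoter motifs were chosen after the Zfp36 window had been seen.

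The members, the gene lists, the tests and the alternatives were chosen with earlier results of these data known. The text names all members, Lair1, the 2 members of each list that had the lowest p, the 3 early genes with the largest spread, and the 5 genes nearest to each member whose log2 CPM range was above 1; other genes are said to be named after their values were seen, except cell type markers and those named for counts below the filter. Of the genes this rule names, 2 are not reported here. Listed genes without a row in the table were not analysed here.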

Additional observations from a re-analysis of the deposited data

How the results depend on the processing

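Across 98 values of the 7 members under 14 alternatives, 0 were called and 87 kept their direction. The 11 that changed sign all came from leaving out libraries. Lair1 itself was not called with limma-voom, without wild type mouse 1 or without mouse 1 of both genotypes. The absence of member calls under those alternatives therefore says little. Leaving out 1 library at a time gave log2 fold changes from -0.55 to 0.66 for Zfp36, -0.12 to 0.15 for Zfp36l1, -0.19 to 0.094 for Zfp36l2, -0.99 to 0.84 for Zc3h12a, -0.17 to -0.030 for Rc3h1, -0.33 to -0.035 for Rc3h2 and -0.17 to -0.048 for Pdcd4. For the first 4 genes the lowest value is the one without LAIR-1-deficient mouse 1 and the highest the one without wild type mouse 1. Without mouse 1 of both genotypes, Zfp36 changed sign to -0.090 and Zfp36l1 to 0.050. CPM values of the members moved by less than 1 SD of their group under RLE factors and under library totals.

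Genes called over the whole table were 0 higher and 1 lower. They were 1 and 2 without a low-count filter, 0 and 0 with limma-voom and without mouse 1 of both genotypes, and ranged from 0 to 1 higher and 0 to 2 lower when 1 library was left out; 302 genes had an unadjusted p under 0.05 with limma-voom and 440 without mouse 1 of both genotypes. List medians that moved by more than the spread between mice were those of decapping (0.013 without mouse 1 of both genotypes; -0.048 to 0.017 leaving out 1 library), other RNA binders (-0.032 without a filter; -0.029 to 0.074) and ZFP36 family targets (-0.21 to 0.057). The other medians moved by less than that spread, which is itself wide for early genes; leaving out 1 library gave -0.65 to 0.52 for early genes, -0.35 to 0.43 for Regnase-1 and Roquin targets, -0.11 to 0.060 for CCR4-NOT, -0.0041 to 0.037 for the exosome, 0.026 to 0.065 for modifiers and -0.015 to 0.037 for the eIF4A complexes.

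The mouse numbers were not shown to pair the samples. Deviations from the group means correlated at 0.29 for mouse 1, 0.0094 for mouse 2 and 0.065 for mouse 3. Between mice of unlike number they correlated at -0.22 to 0.18, so only the mouse 1 pair stood above these. With mouse number as a block, 0 members were called, 1 gene was called lower, and the log2 fold change was 0.084 for Zfp36 and -0.089 for Zc3h12a. Depth limits Rc3h2 most, at 67 to 157 counts per library.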
